A study of Homo sapiens with 4 samples.

Results

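The 5 mature miRNAs described here come from 3 hairpins, miR-126 (both arms), miR-10a (both arms) and miR-146b (the 5p arm), and were chosen by name among the 2366 human miRNAs counted. They were grouped as miRNAs linked to blood stem cells and megakaryocytes whose hairpins have no close hairpin neighbour. Small RNA was counted in K562-dCas9-KRAB cells, a derivative of the K562 leukaemia line that carries an inactive Cas9 fused to the KRAB repressor, so that a guide RNA silences the gene it points to (CRISPR interference). The ERH knockdown group held 2 libraries, 1 with guide RNA 1 and 1 with guide RNA 2 against ERH, from polyclonal inducible lines kept in 0.05 µg/ml doxycycline until day 5. The control group held 2 libraries from the lines with the same 2 guide RNAs, sampled on day 5 without doxycycline. All 4 cultures therefore carried dCas9-KRAB and a guide RNA against ERH, and doxycycline was present in the knockdown cultures alone, so its own action and that of ERH loss cannot be told apart. Small RNA libraries give no value for ERH mRNA, so the knockdown itself is not checked here. The comparison asks how far each hairpin's miRNAs depend on ERH, a small conserved protein that associates with Microprocessor.

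A miRNA is cut from a hairpin in its primary transcript by Microprocessor (DROSHA with DGCR8), then by Dicer, which leaves a duplex of a 5p and a 3p arm. Usually 1 arm is loaded into an Argonaute protein and finds its targets through the seed, bases 2 to 8 from the 5′ end. miR-126 lies within the endothelial gene EGFL7 and is known in endothelium, in blood stem cells and in megakaryocytes, and both of its arms are known to act. miR-10a lies among the HOXB genes and falls during megakaryocyte differentiation. miR-146b, like its paralogue miR-146a, is induced by NF-κB signalling and represses the signalling adaptors TRAF6 and IRAK1.

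The mature sequences are shown because the seed decides which other miRNAs could share targets with each member. They are RefSeq's, on build GRCh38.p14, written 5′ to 3′ with the seed in capitals, and all 5 members matched an entry. The other arm of the miR-146b hairpin, which is no member, and the paralogue miR-146a-5p stand with them.
hsa-miR-126-5p: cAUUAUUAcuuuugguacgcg
hsa-miR-126-3p: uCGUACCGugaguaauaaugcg
hsa-miR-10a-5p: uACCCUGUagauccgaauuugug
hsa-miR-10a-3p: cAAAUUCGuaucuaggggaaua
hsa-miR-146b-5p: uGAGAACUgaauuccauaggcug
hsa-miR-146b-3p: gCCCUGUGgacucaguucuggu
hsa-miR-146a-5p: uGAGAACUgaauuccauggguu
The 5 members carry 5 different seeds. The RefSeq table is not complete, and seed relatives are given for miR-146b-5p alone: among the 2370 mature names held, it shares its seed with 2 others, miR-146a-5p and miR-7153-5p. miR-146b-5p (23 bases) and miR-146a-5p (22 bases) differ over their shared length by A18G and C21U, counted from the 5′ end of miR-146b-5p, so the seed is the same. In the deposited counts, reads with this seed were nevertheless assigned almost entirely to miR-146b. miR-146a-5p had 9 and 16 reads after knockdown, against 6 and 4 in control libraries, and miR-7153-5p had 0 reads in each library. miR-146b-5p made up 99.97% and 99.96% of the reads with this seed after knockdown and 99.98% and 99.99% in controls. How reads too short to tell miR-146b-5p from miR-146a-5p were assigned is not given in the sources used here.

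The hairpins are shown because the arms are compared below. They are RefSeq's annotated hairpins (GRCh38.p14), with the 5p and the 3p arm in capitals.
miR-126: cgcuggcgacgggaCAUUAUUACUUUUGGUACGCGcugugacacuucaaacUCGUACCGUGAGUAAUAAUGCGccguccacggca
miR-10a: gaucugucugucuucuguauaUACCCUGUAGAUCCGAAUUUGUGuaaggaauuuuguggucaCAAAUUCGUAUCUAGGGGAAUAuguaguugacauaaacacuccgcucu
miR-146b: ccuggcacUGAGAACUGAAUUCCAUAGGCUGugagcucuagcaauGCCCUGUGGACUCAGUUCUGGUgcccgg
Paired bases of each arm in the predicted fold are counted with any partner, inside or outside the other arm. In miR-126 the arms are separated by 16 bases, and 18 of 21 bases (5p) and 18 of 22 bases (3p) are paired. In miR-10a they are separated by 18 bases, and 20 of 23 and 20 of 22 bases are paired. In miR-146b they are separated by 14 bases, and 18 of 23 and 20 of 22 bases are paired. The predicted fold energy was -0.472 kcal/mol per base for miR-126, -0.309 for miR-10a and -0.495 for miR-146b, beside a median of -0.452 over 1560 annotated human hairpins. miR-10a thus had the weakest fold per base of the 3, and 89.9% of the annotated hairpins folded more strongly, although its annotated hairpin is also the longest of the 3 (110 bases, against 85 for miR-126 and 73 for miR-146b).

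MIR126 lies at chr9:136670602-136670686 on the plus strand (GRCh38), in an intron of EGFL7 in all 5 GENCODE transcripts that span it. MIR10A lies at chr17:48579838-48579947 on the minus strand, in introns of 6 HOXB3 transcripts and within an exon of 1 HOXB4 transcript and of the noncoding AC103702.1. MIR146B lies at chr10:102436512-102436584 on the plus strand, where no other gene is annotated. The nearest annotated hairpin on the same strand lies 160271 bases from MIR126, 52543 bases from MIR10A (it is MIR196A1) and 835015 bases from MIR146B. By these distances each is a single hairpin, with no neighbour within 10 kb.

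The knockdown libraries held 2227374 and 2393565 miRNA reads (guide RNAs 1 and 2) and the control libraries 1430434 and 2476700, of which the 5 members took 4.03% and 4.13% after knockdown and 4.22% and 3.95% in controls. The deposited values are raw read counts. The annotated sequences of the members are 21 to 23 bases long, so counts are not divided by length. Levels are given as CPM (reads per 1000000 miRNA reads), scaled by TMM, which centres the bulk of miRNAs between libraries. The scaling decides the sign of several members. The median log2 fold change of the 464 tested miRNAs was 0.06 with TMM, 0.50 with library size alone and 0.75 with the 2 spike-in RNAs that the files list, so under TMM "rose" and "fell" mean relative to the bulk of tested miRNAs. Reads per spike-in read were 37.6 and 49.99 after knockdown and 31.0 and 42.6 in controls, so guide RNA 2 libraries were higher in both groups; the amount of spike-in added is not in the labels. Marker miRNAs of erythroid cells (miR-451a, miR-144-3p and miR-486-5p), to which K562 is known to be related, summed to 112157 and 116003 raw reads after knockdown, against 55591 and 94506 for the controls. With TMM 1 of the 3 rose (miR-144-3p, by 0.74 on the log2 scale) and 1 fell (miR-451a, by 0.48). With library size alone miR-451a stood at -0.05 and was not called. The markers of myeloid cells (miR-223-3p and miR-142-3p) summed to 188414 and 202753 raw reads after knockdown, against 128746 and 227704 for the controls, and both fell with TMM. With library size alone both stood at -0.10 and miR-223-3p was not called, and with spike-ins they stood at 0.15 and 0.14, not called. The lymphoid miR-150-5p, neuronal miR-124-3p, muscle miR-1-3p and hepatocyte miR-122-5p had 0 to 8 reads in each library. The neuronal pair with miR-9-5p summed to 826 and 885 reads after knockdown, against 419 and 812 for the controls (0 calls with TMM). The mesenchymal pair (miR-143-3p and miR-145-5p) summed to 2579 and 2700 reads after knockdown, against 1071 and 1651 for the controls, and miR-145-5p rose by 0.26 on the log2 scale. The epithelial pair (miR-200c-3p and miR-141-3p) summed to 310 and 327 reads after knockdown, against 126 and 196 for the controls. Under TMM miR-200c-3p rose by 0.35 (adjusted p = 0.044, but 0.077 with guide RNA as a block) and miR-141-3p was not called. With library size alone miR-144-3p, miR-145-5p, miR-200c-3p and miR-141-3p stood at 1.18, 0.70, 0.80 and 0.66. With spike-ins they stood at 1.42, 0.95, 1.03 and 0.90, all called on both scales. miR-486-5p (0.39 and 0.63) and miR-9-5p (0.25 and 0.49) were called with library size alone and not with spike-ins. On these scales 58.8% and 40.1% of all tested miRNAs were called as higher. The part of such markers in the results below was not tested. In bulk RNA, fewer cells that make a miRNA and less of it per cell cannot be told apart.

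After ERH knockdown, 3 of the 5 members fell relative to the bulk, namely miR-146b-5p and both arms of miR-126, and 0 rose. Both arms of miR-10a stayed without a call. Of all 464 tested miRNAs, 50.9% were called, 25.2% as lower and 25.6% as higher. A call is an adjusted p below 0.05 (Benjamini-Hochberg) in the quasi-likelihood test that edgeR provides, and adjusted p-values below are from it unless another tool is named. The members' 3 of 5 stands beside that high background. Among the 176 tested miRNAs with a mean of at least 100 CPM, 76 fell and 34 rose, and 4 of the 5 members are that abundant. The median log2 fold change was -0.26 over the 5 members, 0.06 over all tested miRNAs and -0.12 over those abundant ones. A scaling moves all miRNAs by nearly the same amount, so the distance of a member from the median of all tested miRNAs is nearly the same under each by construction. With TMM it was -0.75 on the log2 scale for miR-146b-5p, -0.34 for miR-126-3p, -0.32 for miR-126-5p, -0.18 for miR-10a-3p and -0.09 for miR-10a-5p.

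**Figure D1:**
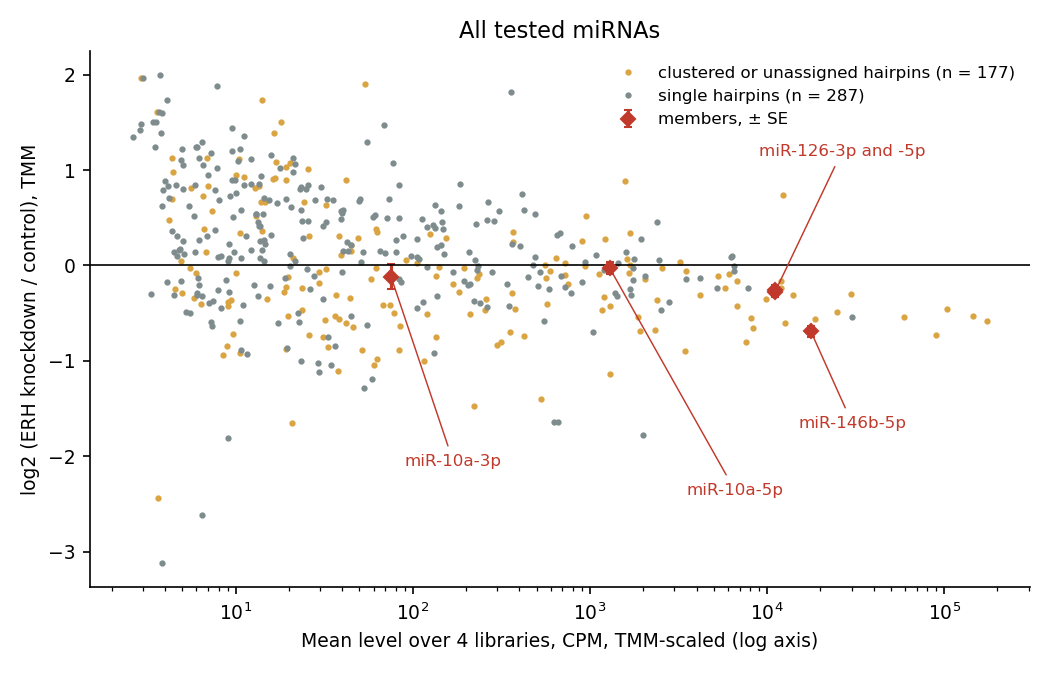
Log2 fold change of ERH knockdown over control (TMM scaling, vertical axis) against the mean level over the 4 libraries (CPM, log axis) for the 464 tested miRNAs. Grey points are single hairpins, yellow points clustered or unassigned hairpins, and red diamonds the 5 members with the SE of the fit. miR-146b-5p at -0.69 and both miR-126 arms at -0.27 and -0.26 lie below 0, and the miR-10a arms lie near it.

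miR-146b-5p, the most abundant member, had the largest change of the 5. It had 34060 and 38684 reads after knockdown (guide RNAs 1 and 2), against 29104 and 42681 in controls, which came to 12940 and 14124 CPM after knockdown and 23084 and 20593 CPM in controls. Both knockdown libraries lay below both control libraries, as for 34.9% of all tested miRNAs, and 76.3% lay apart in either direction. Its log2 fold change was -0.69 ± 0.06 (SE, n = 2 libraries in each group, edgeR adjusted p = 2.35e-07), which is 0.620 of the control level. Within guide RNA 1 the log2 ratio of knockdown to control was -0.84, and within guide RNA 2 it was -0.54. This fall was also called with library size alone, where its value was -0.26 and 8.84% of tested miRNAs fell. On that scale the log2 ratio was -0.41 within guide RNA 1 and -0.09 within guide RNA 2. With spike-in scaling the value was 0.02 ± 0.39 (SE) and not called, with 575 and 808 reads per 1000 spike-in reads after knockdown against 631 and 734 in controls. On that scale the groups overlap, and of all tested miRNAs 41.8% were called, 40.1% as higher and 1.72% as lower. Within guide RNA 1 the spike-in log2 ratio was -0.13 and within guide RNA 2 it was 0.14. Spike-in scaling with guide RNA as a block was added after seeing the data. It gave 0.0029 ± 0.053 (SE, adjusted p = 0.96), again without a call, while 76.3% of tested miRNAs were called, 72.6% as higher and 3.66% as lower.

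The 3p arm of the same hairpin, miR-146b-3p, had 83 and 115 reads after knockdown, against 66 and 112 in control libraries, or 31.5 and 42.0 CPM after knockdown against 52.3 and 54.0 CPM in controls. It fell as well (-0.53 ± 0.17, SE, adjusted p = 0.018), with log2 ratios of -0.74 within guide RNA 1 and -0.36 within guide RNA 2. DESeq2 gave it -0.59 with an adjusted p of 0.070, and with library size alone it stood at -0.09 and was not called. For both arms of this hairpin the fall was larger with guide RNA 1, a difference that was not tested because each guide RNA has 1 library per condition.

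**Figure D2:**
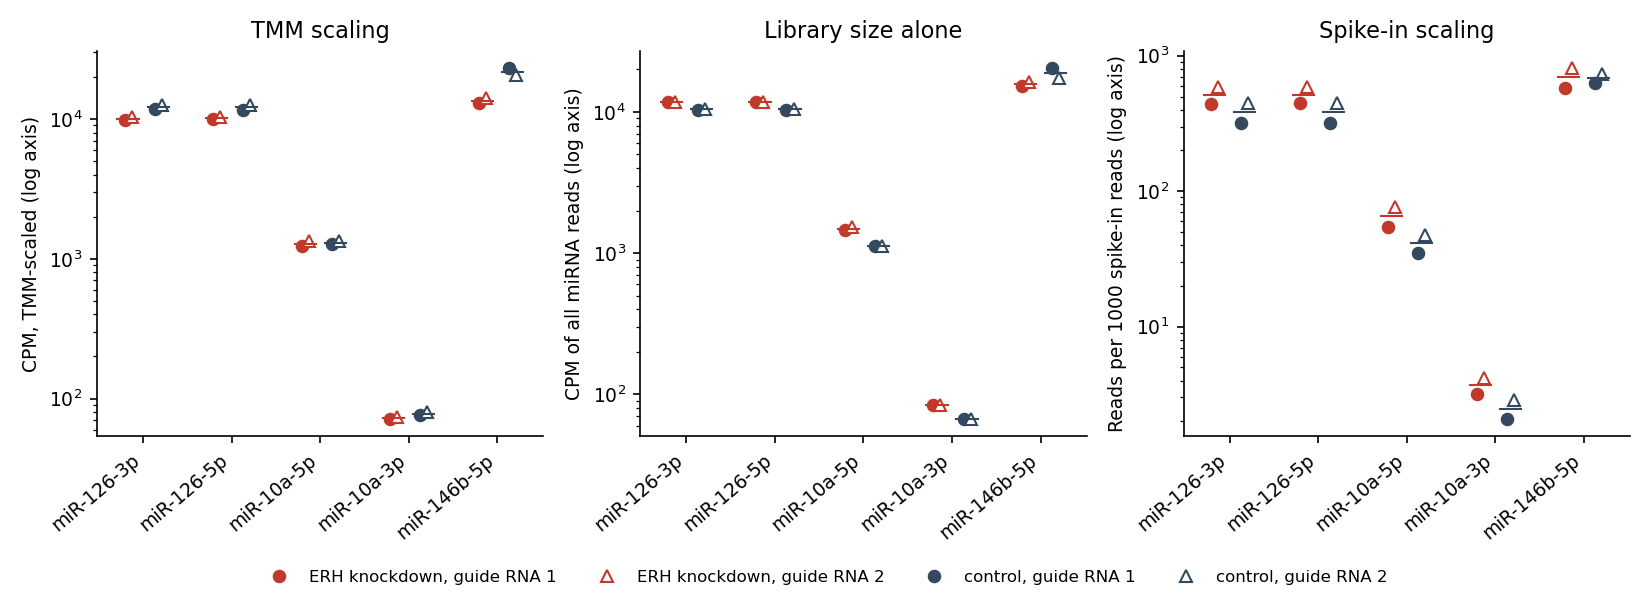
Level of each member in each library under 3 scalings: TMM-scaled CPM, CPM of all miRNA reads, and reads per 1000 spike-in reads (log axes). Red is ERH knockdown, dark blue control, filled circles guide RNA 1, open triangles guide RNA 2, and bars the mean of 2 libraries. With library size alone the miR-126 and miR-10a knockdown points lie above the control points, and those of miR-146b-5p lie below. With TMM the knockdown points of miR-126, miR-10a-3p and miR-146b-5p lie below the control points.

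Both arms of miR-126 fell by nearly the same small amount. miR-126-3p had 26006 and 28126 reads after knockdown, against 14825 and 26077 in control libraries, or 9880 and 10269 CPM after knockdown against 11758 and 12582 CPM in controls. Its fall was 0.27 ± 0.05 on the log2 scale (SE, adjusted p = 0.000568), to 0.828 of the control level, with log2 ratios of -0.25 within guide RNA 1 and -0.29 within guide RNA 2. miR-126-5p had 26359 and 28219 reads after knockdown, against 14721 and 26111 in control libraries, or 10014 and 10303 CPM after knockdown against 11676 and 12599 CPM in controls. It fell by 0.26 ± 0.05 (SE, adjusted p = 0.0010), with log2 ratios of -0.22 within guide RNA 1 and -0.29 within guide RNA 2. In TMM-scaled CPM the knockdown and control libraries of either arm do not overlap, as for 4 of the 5 members. Of all tested miRNAs, 34.9% lay lower and 41.4% higher after knockdown without overlap, 76.3% in all.

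The sign of the miR-126 change depends on the scaling. With library size alone miR-126-3p had 11676 and 11751 CPM after knockdown and 10364 and 10529 CPM in controls, and it rose by 0.17 ± 0.05 (log2, SE, adjusted p = 0.0078), while miR-126-5p rose by 0.18 (adjusted p = 0.0038). On that scale 67.7% of tested miRNAs were called, 58.8% as higher. Without overlap, 69.2% lay higher after knockdown and 14.2% lower (83.4% in all), and 4 of the 5 members were among the higher ones. With spike-ins and no block they stood at 0.42 ± 0.39 and 0.43 ± 0.39 (SE) and were not called. Within the guide RNAs the spike-in values were close, at 0.45 (guide RNA 1) and 0.39 (guide RNA 2) for miR-126-3p and at 0.48 and 0.39 for miR-126-5p. With guide RNA as a block, a fit added after seeing the data, both were called as higher, at 0.42 ± 0.056 and 0.44 ± 0.056 (SE, adjusted p = 1.31e-12 and 1.91e-13). In that fit, which leaves 1 residual degree of freedom per miRNA, 72.6% of tested miRNAs were called as higher. Under TMM, both calls were lost without knockdown replicate 1, where the values were -0.26 (adjusted p = 0.077) and -0.25 (adjusted p = 0.086) and 23.3% of miRNAs were called (117 in place of 236), 9.76% as higher and 13.5% as lower.

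miR-10a showed no called change in either arm relative to the bulk. miR-10a-5p had 3240 and 3650 reads after knockdown, against 1612 and 2761 in control libraries, or 1231 and 1333 CPM after knockdown against 1279 and 1332 CPM in controls. The libraries overlap, and the log2 fold change was -0.03 ± 0.06 (SE, adjusted p = 0.74), with a 95% interval of -0.16 to 0.11. Within guide RNA 1 the log2 ratio was -0.06 and within guide RNA 2 it was 0.00. miR-10a-3p, the rarer arm, had 188 and 201 reads after knockdown, against 96 and 166 in control libraries, or 71.4 and 73.4 CPM after knockdown against 76.1 and 80.1 CPM in controls. Its log2 fold change was -0.12 ± 0.13 (SE, adjusted p = 0.47), with a 95% interval of -0.38 to 0.15, so at this depth a fall as large as that of miR-126 lies within the interval of the 3p arm but not of the 5p arm. With library size alone both arms rose, miR-10a-5p by 0.41 ± 0.07 and miR-10a-3p by 0.33 ± 0.14 (SE, adjusted p = 9.38e-06 and 0.038). There 58.8% of tested miRNAs were called as higher. With spike-ins and no block they stood at 0.67 and 0.57 and were not called, although the groups of either arm do not overlap there. Within guide RNAs 1 and 2 the spike-in values were 0.65 and 0.68 for miR-10a-5p and 0.60 and 0.55 for miR-10a-3p. With guide RNA as a block, a fit added after seeing the data, both arms were called as higher, at 0.67 ± 0.079 and 0.58 ± 0.157 (SE, adjusted p = 3.26e-15 and 0.00045). In that fit 72.6% of tested miRNAs were called as higher and 3.66% as lower. On the spike-in scale 68.8% of tested miRNAs lay higher and 3.88% lower without overlap, 72.6% in all.

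**Figure D3:**
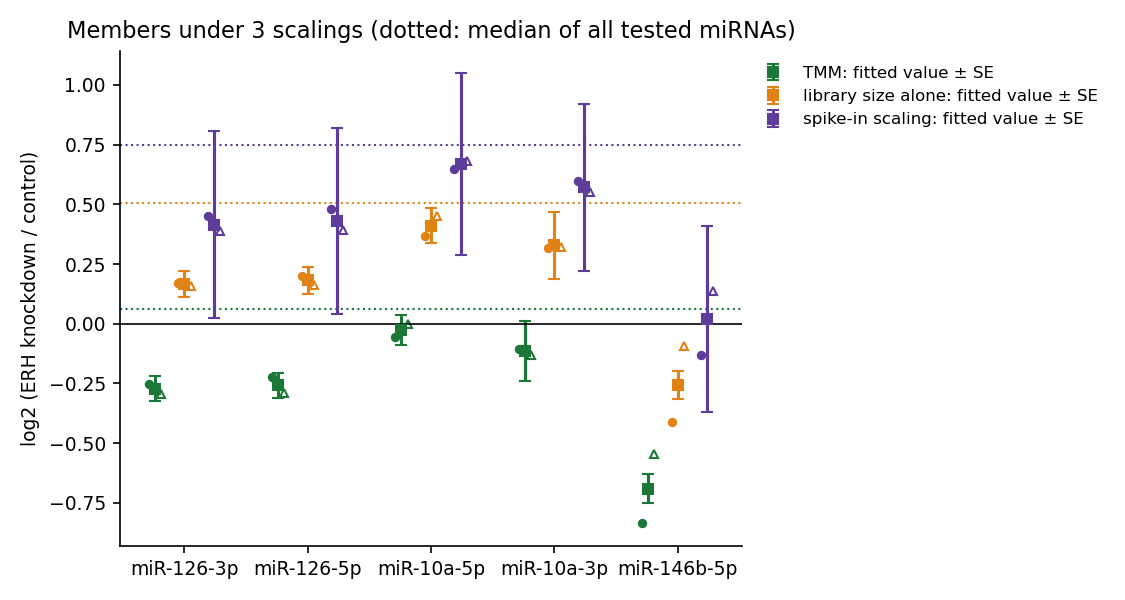
Log2 ratio of ERH knockdown over control for each member under 3 scalings (green TMM, orange library size alone, purple spike-ins). Squares with bars are the fitted value ± SE, circles the ratio within guide RNA 1, open triangles that within guide RNA 2, and dotted lines the median of all tested miRNAs under the same scaling. All 5 members lie below the dotted line of their scaling, which is 1 comparison shown on 3 scales, and miR-146b-5p lies farthest below it, at -0.69 against 0.06 with TMM.

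The ratio of 1 member to another in the same library does not depend on scaling, and the 3 hairpins are compared by such ratios. The count of miR-146b-5p per miR-126-3p was 1.31 and 1.38 after knockdown and 1.96 and 1.64 in controls, or 1.34 ± 0.046 against 1.80 ± 0.231 (SD, n = 2), a log2 difference of -0.42. The count of miR-10a-5p per miR-126-3p was 0.125 and 0.130 after knockdown and 0.109 and 0.106 in controls, or 0.127 ± 0.0037 against 0.107 ± 0.0020 (SD, n = 2), a log2 difference of 0.24. The count of miR-146b-5p per miR-10a-5p was 10.5 and 10.6 after knockdown and 18.1 and 15.5 in controls, or 10.6 ± 0.061 against 16.8 ± 1.84 (SD, n = 2), a log2 difference of -0.66. In each of the 3 ratios the groups do not overlap, as in 82.2% of all pairs among the 176 miRNAs with a mean of at least 100 CPM, so this says little about the members. Per miR-126-3p, the value of miR-146b-5p was lower and that of miR-10a-5p higher after knockdown within both guide RNAs. The exact permutation test (two-sided) gave p = 0.333 for each, the smallest that 2 libraries against 2 allow, so these ratios cannot reach the threshold by that test.

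**Figure D4:**
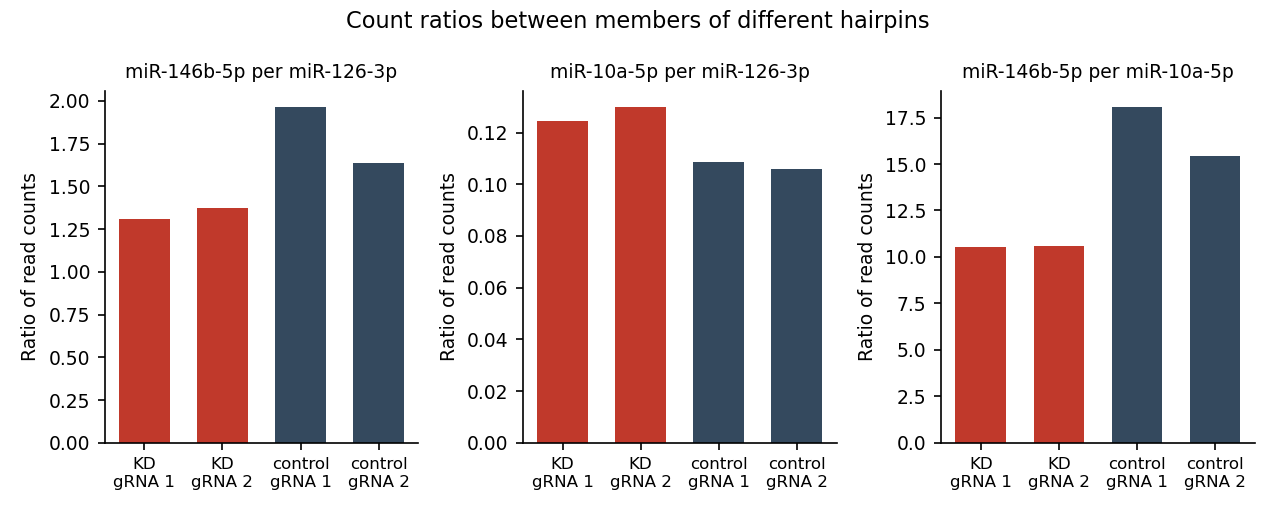
Ratio of read counts of 2 members within each library, for the 3 pairs of hairpins. Red bars are the ERH knockdown libraries and dark blue bars the control libraries, with 1 bar per guide RNA. miR-146b-5p per miR-126-3p and per miR-10a-5p is lower in both knockdown libraries, and miR-10a-5p per miR-126-3p is higher (0.125 and 0.130 against 0.109 and 0.106).

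The share of reads from either arm of a hairpin was nearly the same after knockdown and in controls. The 3p arm of miR-126 took 49.7% and 49.9% of the hairpin's reads after knockdown and 50.2% and 49.97% in controls, so this hairpin gave its arms in nearly equal numbers in each library. Its shares after knockdown both lay below those in controls, and arm-ratio groups lay apart, in either direction, in 54.1% of 109 hairpins. The exact permutation test gave p = 0.333 for its arm ratio. Exact 95% binomial intervals ran from 49.2% to 50.1% for knockdown with guide RNA 1 and from 49.6% to 50.7% for its control, and they cover counting error only. The log2 ratio of 3p to 5p reads differed between knockdown and control by -0.02 ± 0.15 (SE), with a 95% interval of -0.39 to 0.36 (limma across hairpins, adjusted p = 0.95). Where the prior variance follows read depth, that interval narrows to -0.12 to 0.09. The difference is smaller than its SE under both priors.

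The miR-10a hairpin gave mostly its 5p arm. Its 3p share was 5.48% and 5.22% after knockdown and 5.62% and 5.67% in controls, or 5.35% ± 0.187 against 5.65% ± 0.036 (SD, n = 2). Both knockdown shares lay below both control shares, and arm-ratio groups lay apart, in either direction, in 54.1% of 109 hairpins. Each knockdown share lies, however, within the control libraries' 95% counting intervals, 4.58% to 6.82% and 4.86% to 6.57%. The log2 ratio differed by -0.09 ± 0.15 (SE), with a 95% interval of -0.47 to 0.29 (limma, adjusted p = 0.77). The exact permutation test gave p = 0.333. For miR-146b the 3p share was 0.243% and 0.296% after knockdown and 0.226% and 0.262% in controls, with overlapping groups and a log2 difference of 0.14 ± 0.18 (SE, limma, adjusted p = 0.72).

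Of 109 hairpins with both arms tested, limma called 4.59% for a changed arm ratio (12.8% where the prior variance follows depth), and in 54.1% the groups did not overlap. The absolute log2 change had a median of 0.22 and a largest value of 1.67 over these hairpins. Ordered from the largest absolute change down, miR-126 ranked 107, miR-10a 90 and miR-146b 74 of the 109.

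**Figure D5:**
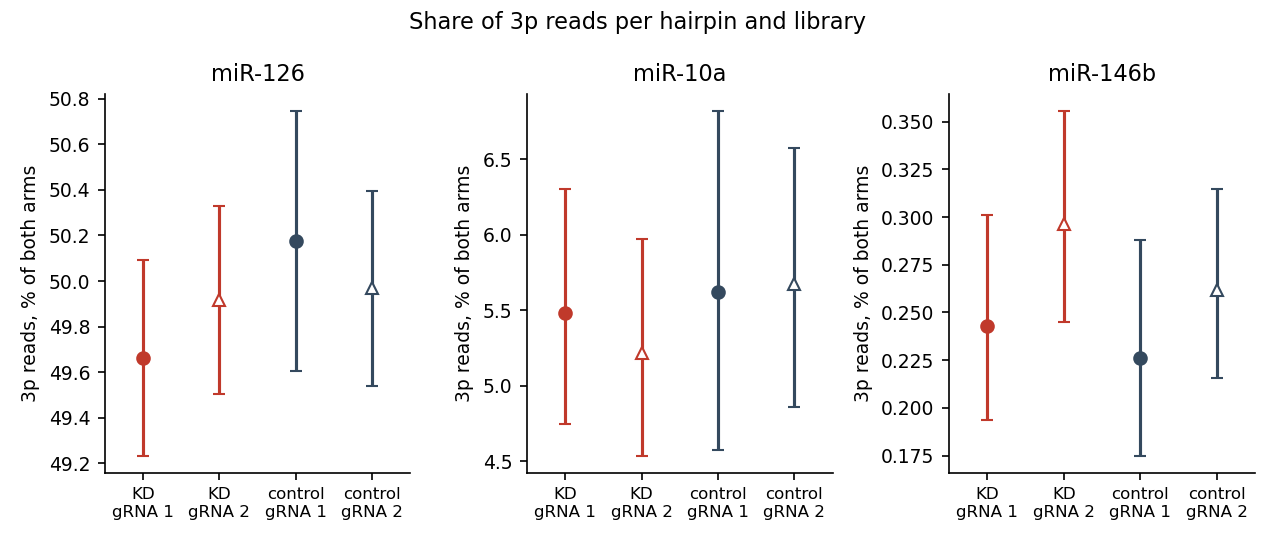
Share of 3p reads among both arms of each hairpin, in percent, in each library. Bars are exact 95% binomial intervals, red is ERH knockdown and dark blue control, and each panel has its own vertical axis that does not start at 0. The miR-126 shares lie between 49.7% and 50.2%, those of miR-10a between 5.22% and 5.67% and those of miR-146b between 0.226% and 0.296%.

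The members can be set beside the other single hairpins. Of 287 tested miRNAs whose hairpins all lie alone within 10 kb, 86 rose and 49 fell, with a median log2 fold change of 0.17, and without the 5 members 86 of 282 rose and 46 fell. Of 171 from clustered hairpins, 33 rose and 68 fell, with a median of -0.16. miR-146b-5p at -0.69 therefore lies below the lower quartile of the single hairpins (-0.20) and of the clustered ones (-0.53). Both miR-126 arms lie between these 2 quartiles. Among the 95 single-hairpin miRNAs with a mean of at least 100 CPM, the level of 4 of the 5 members, 25 rose and 31 fell, the median was -0.03 and the lower quartile -0.25.

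The miRNAs whose levels over the 4 libraries lay nearest to each member, by Euclidean distance of centred log2 CPM among 176 abundant miRNAs, are given as a description. Their fold changes resemble the member's because they were chosen on the same 4 libraries. Nearest to miR-126-3p were its own other arm miR-126-5p (0.021), miR-140-3p (0.029) and miR-92b-3p (0.047), and these fell by 0.26, 0.28 and 0.31 on the log2 scale. Nearest to miR-10a-5p were miR-128-3p (0.067), miR-342-3p (0.069) and miR-766-3p (0.089), of which none was called (-0.03, -0.05 and 0.00). Nearest to miR-146b-5p were miR-20a-3p (0.042), miR-33b-3p (0.087) and miR-532-3p (0.099), which fell by 0.68, 0.75 and 0.74.

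Of 13 related or stem cell and megakaryocyte miRNAs listed, 12 have rows and 3 passed the filter on low counts. miR-125a-5p, a stem cell miRNA and the most abundant of them, had 13682 and 14972 reads after knockdown, against 8025 and 12901 in control libraries, and fell by 0.24 ± 0.05 (log2, SE, adjusted p = 0.0015), close to the values of miR-126. miR-99b-5p, a relative of miR-10a encoded beside miR-125a, had 4914 and 5612 reads after knockdown, against 2743 and 4431 in control libraries, and stood at -0.14 ± 0.06 (adjusted p = 0.064), while DESeq2 called it lower (-0.19, adjusted p = 0.040). With library size alone both were positive and called (0.20 and 0.30), and with spike-ins and no block both were positive and not called. miR-34a-5p, which rises during megakaryocyte differentiation, had 11 and 10 reads after knockdown, against 20 and 26 in control libraries, and fell by 1.81 ± 0.34 (SE, adjusted p = 0.00052). The other 9, among them miR-155-5p, miR-125b-5p, miR-196b-5p and miR-146a-5p, had 0 to 17 reads in each library. Where 0 reads were counted, up to 3 could have gone unseen by counting error alone, which is 1.35 and 1.25 CPM in the knockdown libraries and 2.10 and 1.21 CPM in the control libraries.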

How the data were processed

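Small RNA was gel-purified and sequenced, per the labels. The authors deposited raw read counts, 1 whole number per mature miRNA and library, in tables of 2368 rows without a header, 2 of them spike-in RNAs by name. For the trimming, aligner, annotation and build the answer is "not given in the sources used here". The members and lists were chosen with earlier results of these data known.

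The filter, on miRNA counts alone, was filterByExpr (minimum count 10, minimum total 15), which left 464 miRNAs with 99.9% of the counts, all 5 members among them. TMM scaling and the quasi-likelihood test came from edgeR 4.0.16 (R 4.3.3), for knockdown against control with no block, and calls are at an adjusted p under 0.05. The SE is the log2 fold change over the root of F. Ratios within a guide RNA used 2 added reads. Arm ratios, log2((3p + 2)/(5p + 2)), were fitted with limma 3.58.1 over 109 hairpins. Exact permutation tests ran over libraries.

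Named miRNAs are the members, the other arm of miR-146b, miRNAs that share a seed, a list of 13 related ones (1 without a row and not analysed here), and the 3 nearest patterns with a mean of at least 100 CPM. Of 2366 names, 2363 matched hairpin genes of GENCODE 29. Folds came from RNAfold 2.7.2, and figures were drawn with matplotlib 3.10.9.

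A replicate number stands for a guide RNA and so a cell line, which pairs the samples. The deviations of libraries with 1 number had a correlation of -0.10 over miRNAs (2 pairs). The labels name no separate cultures beyond 1 per guide RNA and condition, so p-values reflect only how these libraries vary, which may be technical. The 2 libraries within a group are distinct: chi-square over its degrees of freedom was 3.93 in the knockdown pair and 10.1 in the control pair. No label mentions molecular identifiers. Alternatives were a replicate block, DESeq2 1.42.0, other scalings and filters, other prior counts and variances, other cluster distances, and each library left out in turn. Spike-in scaling with the replicate block was added after seeing the data.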

Additional observations from a re-analysis of the deposited data

Results flagged for a closer look

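In 2 cases the 2 guide RNAs gave opposite signs for a member. With TMM scaling the log2 ratio of knockdown to control for miR-10a-5p was -0.056 within guide RNA 1 and 0.00024 within guide RNA 2. With spike-in scaling that of miR-146b-5p was -0.13 within guide RNA 1 and 0.14 within guide RNA 2. Each guide RNA has 1 library per condition, so neither difference was tested, and neither miRNA was called under the scaling concerned.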

How the results depend on the processing

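Scaling moved the members more than any other choice. Library size alone turned miR-126-3p to 0.17, miR-126-5p to 0.18, miR-10a-5p to 0.41 and miR-10a-3p to 0.33, all called. Spike-in scaling turned them to 0.42, 0.43, 0.67 and 0.57 and miR-146b-5p to 0.019, none called. Spike-in scaling with the replicate block, chosen after seeing the data, gave 0.42, 0.44, 0.67 and 0.58, all called, and 0.0029 for miR-146b-5p, not called, with 354 miRNAs called (337 up, 17 down), 231 of them single-hairpin miRNAs; a block leaves 1 residual degree of freedom per miRNA. Library size alone called 273 miRNAs up and 41 down, and spike-ins without a block called 186 up and 8 down, against 119 up and 117 down. With a mean of at least 10 CPM, miR-10a-5p stood at 0.013, not called. DESeq2 called 150 miRNAs in place of 236, and 74 single-hairpin miRNAs in place of 135; the cause was not tested. Leaving out each library, with fewer samples and the lone library taken to vary like the others, gave 117 to 195 calls, 59 to 105 of them single-hairpin miRNAs. The lowest of each was without knockdown replicate 1; without control replicate 2 there were 140 and 66, and without knockdown replicate 2 there were 86 single-hairpin calls. The members then ranged from -0.33 to -0.25 (miR-126-3p), -0.32 to -0.22 (miR-126-5p), -0.089 to 0.017 (miR-10a-5p, above 0 without knockdown replicate 1), -0.15 to -0.10 (miR-10a-3p) and -0.79 to -0.61 (miR-146b-5p, always called). With TMM and guide RNA as a replicate block, 230 miRNAs were called and no member's call changed (miR-126-3p -0.27, miR-146b-5p -0.69). Both arm ratios kept their sign and stayed uncalled under all 8 alternatives tried. The number of the 109 arm ratios called was 5, but 0 with 0.5 reads added and 14 where the prior variance follows depth. With a replicate block 5 were called up and 3 down, and with at least 1 read per arm 0 of 349 were called. The log2 count ratios between members kept their sign under all 5 alternatives tried, from -0.55 to -0.29 (miR-146b-5p per miR-126-3p), 0.22 to 0.27 (miR-10a-5p per miR-126-3p) and -0.77 to -0.55 (miR-146b-5p per miR-10a-5p) as libraries were left out. Depth limits miR-10a-3p and miR-146b-3p, with 66 to 201 reads per library.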
